A study of Mus musculus with 4 samples.

Results

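Transcripts of 10 genes of the Notch pathway were examined in 4 RNA sequencing libraries from mouse retina, made of sorted cells that carry the label RGC (retinal ganglion cell). The genes were the receptors Notch1, Notch2 and Notch3, the ligands Jag1, Dll1 and Dll4, the DNA-binding factor Rbpj, and the target genes Hes1, Hes5 and Hey1. They were taken by gene name from the 56493 genes of the deposited count table, and each matched 1 row. All 10 passed the filter on low counts. They were picked with the levels in these libraries known, so the differences between the groups of libraries are given as a description. All mice were wild type (genotype WT), and all had an optic nerve crush, an injury of the ganglion cell axons, a month after an AAV2 vector was injected into the vitreous. In 2 libraries the vector was AAV2-CrAT, given to overexpress carnitine acetyltransferase, an enzyme of acetyl group metabolism, and in the other 2 it was AAV2-MCS. The labels do not spell out MCS, nor NCd8, which is in the titles of all 4, and give neither age, strain, sex nor the promoter of the vector, nor whether a library came from 1 mouse or from pooled mice. The spread behind every p-value is therefore that of these libraries and may be technical.

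Notch signalling passes between cells that touch. A ligand of the Jagged or Delta-like family on one cell binds a Notch receptor on its neighbour, the receptor is cut by ADAM proteases and then by gamma-secretase, and its freed intracellular part enters the nucleus, where it turns the DNA-binding protein RBPJ from a repressor into an activator. Best known among the genes switched on are those of the HES and HEY repressors, which hold back proneural factors. In the retina the pathway keeps progenitors undifferentiated and favours Mueller glia, the main glial cells of the retina, and in blood vessels it shapes endothelium and the surrounding mural cells.

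Upstream DNA of 3 members is shown because Hes5 is the classical RBPJ target among them and Notch1 and Notch2 are the members whose levels differed most between the groups at more than a few counts. The bases are the 250 before a RefSeq start site, 5′ to 3′ on the gene's strand, build GRCm38.p6. For Hes5 the RefSeq span of the gene begins further upstream, at 154960626, so the printed stretch lies within that span. Capitals mark GTGGGAA, the core of the RBPJ binding motif, or its reverse complement TTCCCAC.
Hes5, chr4:154960673-154960922, plus strand: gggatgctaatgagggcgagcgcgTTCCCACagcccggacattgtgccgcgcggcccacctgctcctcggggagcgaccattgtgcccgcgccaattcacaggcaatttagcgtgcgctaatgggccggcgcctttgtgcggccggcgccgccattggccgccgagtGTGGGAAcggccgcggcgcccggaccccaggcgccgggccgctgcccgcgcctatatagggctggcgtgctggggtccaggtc
Notch1, chr2:26503823-26504072, minus strand: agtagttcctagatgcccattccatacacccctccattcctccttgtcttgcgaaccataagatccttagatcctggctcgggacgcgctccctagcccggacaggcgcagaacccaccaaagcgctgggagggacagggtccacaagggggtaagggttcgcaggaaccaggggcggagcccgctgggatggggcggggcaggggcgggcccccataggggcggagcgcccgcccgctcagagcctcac
Notch2, chr3:98013288-98013537, plus strand: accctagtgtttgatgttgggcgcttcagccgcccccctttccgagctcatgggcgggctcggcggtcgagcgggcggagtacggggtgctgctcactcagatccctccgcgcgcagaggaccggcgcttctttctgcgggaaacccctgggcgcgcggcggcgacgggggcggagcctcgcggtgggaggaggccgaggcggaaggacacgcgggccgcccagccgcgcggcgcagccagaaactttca
The Hes5 window held the motif at 2 places, on the reverse strand from 226 to 220 bases before the start and on the forward strand from 83 to 77 bases before it. Of 32851 RefSeq windows of 300 bases (250 before to 50 after a start), 6.38% held the motif on either strand and 0.256% held it 2 or more times. RefSeq windows matched 8 of the 10 members by symbol, all but Hes1 and Hey1, and Hes5 was the only one of the 8 with the motif. The shorter core TGGGAA, which lies within GTGGGAA, was present in 25.6% of all windows and in those of 2 members, Hes5 and Rbpj. The Notch1 and Notch2 windows held neither. The 250 printed bases were 66.0% G and C for Notch1 and 72.0% for Notch2, against 71.6% for Hes5. A match of letters is not evidence of binding, and these windows do not cover distant sites.

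Crat itself, the gene the vector is to overexpress, stood at 72.5 and 49.9 CPM with CrAT against 38.3 and 47.7 CPM with MCS. CrAT replicate 2 was barely above the higher MCS library, and the log2 fold change of 0.51 (SE 0.33) did not pass in edgeR (adjusted p = 1, unadjusted p = 0.166). Whether the vector's transcript would be counted as Crat is not known from the sources used here. The libraries were 24494253 to 27097438 counts deep, and 3 counts corresponded to 0.109 to 0.126 CPM (counts scaled to a common depth by TMM). This floor covers counting error only, because the reads are PCR copies and carry no molecular identifiers. Markers of the labelled ganglion cells were few: Rbpms was 2.75 to 8.58 CPM, Slc17a6 0.241 to 19.2 CPM, and 9 ganglion cell markers summed to 135.5 to 255.9 CPM. Of that sum Isl1 gave 53.85 to 127.1 CPM in a library. Pou4f1 drew 0 to 20 counts and Pou4f2 0 to 6. The 8 rod markers summed to 22430 to 42290 CPM, with replicate 1 of each group the higher. Amacrine markers summed to 702.3 to 2325 CPM over 8 genes, bipolar markers to 804.9 to 1351 CPM over 6, cone markers to 1522 to 2351 CPM over 5, horizontal cell markers to 8.77 to 81.6 CPM over 3, and microglia markers to 7.75 to 13.2 CPM over 6. The ganglion cell, amacrine, horizontal cell and microglia sums were higher in replicate 2 of each group. The bipolar and cone sums were higher in replicate 1 of each group, as for rods. Nuclear retained RNA (Malat1, Neat1, Meg3 and Kcnq1ot1) came in sum to 1355 CPM in MCS replicate 1 against 362.8 to 434.4 CPM in the other 3, and Malat1 gave 1278 CPM of the 1355. Which cells the Notch transcripts came from was not tested, and in such bulk samples fewer cells of a type and less RNA per cell cannot be told apart.

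The 3 receptors lay lower in both CrAT libraries than in both MCS libraries. Notch1 (ENSMUSG00000026923), the receptor best studied in neural progenitors, drew 562 and 942 counts with CrAT and 2278 and 2403 with MCS, the value of replicate 1 first here and in every such pair. These counts correspond to 23.5 and 35.5 CPM with CrAT against 91.6 and 87.0 CPM with MCS. Both MCS libraries were close to each other and far above both CrAT libraries, of which replicate 2 was the higher. The group means were 29.5 ± 8.48 CPM (CrAT) and 89.3 ± 3.24 CPM (MCS), each with its SD and n = 2, which is 3.02-fold lower in CrAT, and edgeR fitted a difference of -1.60 (SE 0.32) on the log2 scale, CrAT relative to MCS as in all fold changes here.

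Notch2 (ENSMUSG00000027878), the second of the widely expressed receptors, stood at 17.3 and 12.7 CPM with CrAT against 68.5 and 44.7 CPM with MCS. The MCS libraries differed from each other, and the lower of them was still above both CrAT libraries. The means were 15.0 ± 3.27 CPM and 56.6 ± 16.8 CPM (SD, n = 2 per group), or 3.77-fold lower in CrAT, with a log2 fold change of -1.92 (SE 0.37). Notch3 (ENSMUSG00000038146), known from pericytes and vascular smooth muscle, was near the limit of detection, at 15 and 8 counts with CrAT and 50 and 44 with MCS. The groups did not overlap here either. The means were 0.465 ± 0.231 CPM for CrAT and 1.80 ± 0.295 CPM for MCS (SD, n = 2 per group), with a log2 fold change of -1.95 (SE 0.70).

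No member passed an adjusted p of 0.05 in edgeR's quasi-likelihood test over the 19638 genes tested, where no gene did (0%). The adjusted p of each of the 10 members was 1. At an unadjusted p under 0.05 the 3 receptors were the members that passed, all lower in CrAT, as were 2.87% of all genes tested, with 1.28% higher. DESeq2, run as an alternative, had an adjusted p under 0.05 for 0.236% of the 20736 genes to which it gave one, Notch1 (adjusted p = 0.033) and Notch2 (adjusted p = 0.00624) among them. Across the edgeR settings tried, the lowest adjusted p was 0.165 for Notch1 and 0.122 for Notch2, and the highest was 1 for both. Because these genes were picked for this contrast, the values show how the call depends on the tool and lend the difference no further support.

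**Figure D1:**
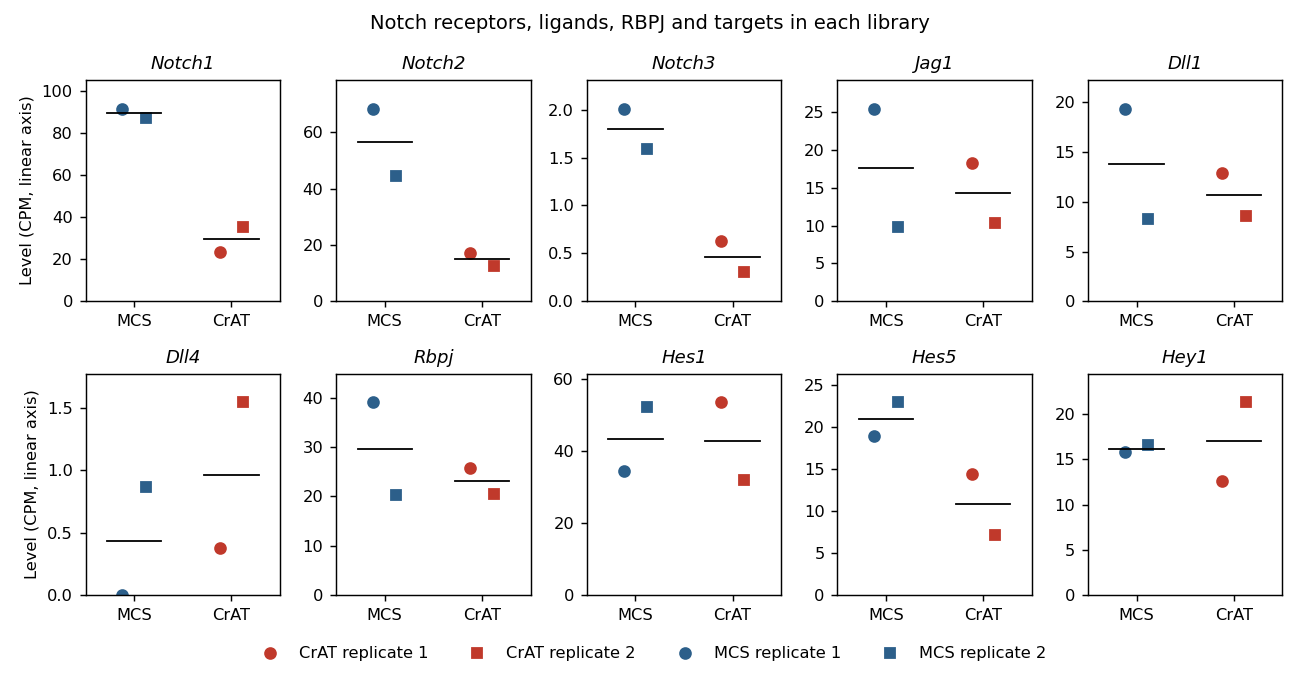
Level of each member in CPM (vertical, linear axis from 0, a scale of its own in each panel) in the MCS libraries (blue) and the CrAT libraries (red). Circles are replicate 1, squares replicate 2 and bars the mean of a group. Notch1, Notch2, Notch3 and Hes5 have both red points below both blue points, and the other 6 overlap.

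The ligands did not part the groups. Jag1, a Jagged ligand, stood at 18.2 and 10.3 CPM with CrAT against 25.4 and 9.85 CPM with MCS. Both CrAT values lay between the MCS values, and the log2 fold change was -0.31 (SE 0.56). Dll1, the Delta-like ligand of neural development, stood at 12.9 and 8.56 CPM with CrAT against 19.4 and 8.29 CPM with MCS, with the same arrangement and a log2 fold change of -0.37 (SE 0.52). Both genes were highest in MCS replicate 1, and without it their log2 fold changes were 0.54 and 0.37. Dll4, the Delta-like ligand of sprouting endothelium, drew 9 and 41 counts with CrAT and 0 and 24 with MCS. A count of 0 leaves room for 0.121 CPM, and the log2 fold change of 1.13 (SE 1.53) was smaller than its error.

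Rbpj (ENSMUSG00000039191), the factor through which all the receptors act, stood at 25.8 and 20.5 CPM with CrAT against 39.0 and 20.3 CPM with MCS. MCS replicate 1 stood above the other 3, which lay close together. The log2 fold change was -0.36 (SE 0.42), and without MCS replicate 1 it was 0.19. The table also held the processed pseudogene Rbpj-ps3, with 49 to 76 counts in a library against 543 to 970 for Rbpj, and how reads shared by such copies were counted is not given in the sources used here.

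Of the 3 targets, Hes5 lay lower in CrAT, and Hes1 and Hey1 overlapped. Hes1, a HES repressor with inputs from many pathways, stood at 53.5 and 32.1 CPM with CrAT against 34.5 and 52.3 CPM with MCS. Each group had a high and a low library, and the log2 fold change was -0.02 (SE 0.39). Hes5 (ENSMUSG00000048001), whose upstream DNA carries the pair of motifs printed above, stood at 14.4 and 7.13 CPM with CrAT against 18.9 and 22.9 CPM with MCS. The CrAT pair lay below the MCS pair. The means were 10.8 ± 5.15 CPM and 20.9 ± 2.79 CPM (SD, n = 2 per group), or 1.94-fold lower in CrAT, with a log2 fold change of -0.96 (SE 0.45) and an unadjusted p of 0.077 in edgeR. Without CrAT replicate 2 the log2 fold change was -0.52, and without CrAT replicate 1 it was -1.55. Hey1, a HEY repressor of vessels and nervous system, stood at 12.7 and 21.3 CPM with CrAT against 15.8 and 16.6 CPM with MCS, with the MCS values between the CrAT values and a log2 fold change of 0.07 (SE 0.40).

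Over the 10 members, 8 had a log2 fold change below 0, as did 49.4% of all genes tested, and the median was -0.36 against 0.01 over all genes tested. In 4 members the CrAT pair lay below the MCS pair, and in 0 the reverse held. Over all genes tested these shares were 16.6% and 15.0%. The members were picked on this contrast, so nothing is read from these counts. The count of 8 rested on MCS replicate 1, since without it 5 members were below 0 and the median was -0.12. Without MCS replicate 2, 7 members lay below the remaining MCS library and the median was -0.82. Without CrAT replicate 1 the median was -0.73, and without CrAT replicate 2 it was -0.27. Each receptor kept a log2 fold change between -1.33 and -2.56 whichever library was left out.

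**Figure D2:**
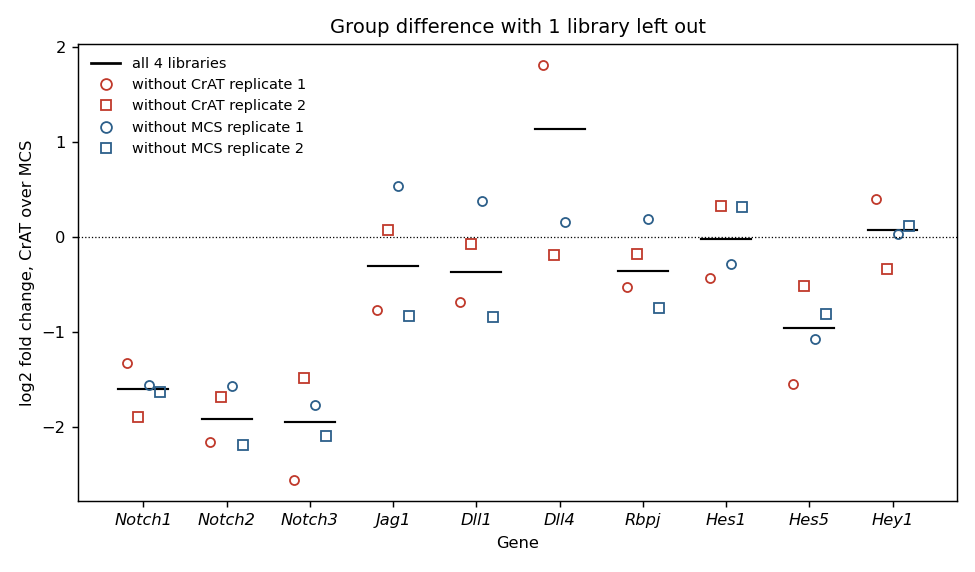
Log2 fold change of each member, CrAT over MCS (vertical), with all 4 libraries (black bar) and with 1 library left out (open symbols, colour and shape naming the library left out). The receptors and Hes5 stay below 0 throughout, and the other 6 have symbols on both sides of 0. For Dll4 the value without MCS replicate 2 is not drawn, because the remaining MCS library has 0 counts.

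The receptors are long transcripts, with summed exons of 14232 bases for Notch1, 10782 for Notch2 and 8089 for Notch3. Genes tested with summed exons of at least 8 kb numbered 2692, with a median log2 fold change of -0.08. Of these genes 21.2% had both CrAT libraries below both MCS libraries, against 15.9% of shorter genes. A log2 fold change below -1.5 was found in 2.01%, against 2.19% of shorter ones. Among the 1731 long genes with a mean of 10 to 100 CPM, the range that holds Notch1 and Notch2, these shares were 21.8% and 0.693%. Of the nuclear retained RNAs, all 4 had a log2 fold change below 0. Kcnq1ot1, a long noncoding RNA, stood at 4.61 and 3.96 CPM with CrAT against 14.7 and 11.2 CPM with MCS, a log2 fold change of -1.59 (SE 0.41), with an adjusted p of 1 and an unadjusted p of 0.00752 in edgeR. Meg3 also had the CrAT pair below the MCS pair, at 23.8 and 38.1 CPM against 39.7 and 38.2 CPM, and Malat1 and Neat1 overlapped, highest in MCS replicate 1. The part of nuclear RNA in the receptor levels was not tested. Long noncoding genes on the opposite strand share exon bases with several members, and the library kit does not mark the strand. For Notch1 they are 0610009E02Rik and Gm13568, with counts of at most 8.72% and 4.09% of those of Notch1 in a library. Notch2 shares bases with Gm42820 on its own strand, whose counts were at most 4.52% of its own. For Hes5 the opposite-strand gene is Gm20421, which shares 433 exon bases and drew 121 and 59 counts with CrAT and 167 and 242 with MCS. These were 31.2% to 38.3% of the Hes5 counts, in the same order of libraries, so reads of the pair cannot be told apart. For Notch3 the opposite-strand gene Gm17276 had 12 to 39 counts, up to 438% of the few Notch3 counts.

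Levels of different genes were compared on the FPKM scale of the authors, per kilobase of exon. Hes1 was the highest member, at 15.6 to 26.1 FPKM over the 4 libraries, then Hes5 at 5.19 to 17.1 FPKM and Hey1 at 3.76 to 6.47 FPKM. Notch1 followed at 1.60 to 6.54 FPKM, Notch2 at 1.17 to 6.44 FPKM, Dll1 at 2.00 to 4.66 FPKM, Jag1 at 1.72 to 4.43 FPKM and Rbpj at 1.59 to 3.11 FPKM. Dll4 at 0 to 0.394 FPKM and Notch3 at 0.037 to 0.25 FPKM were far below. Neighbours in this order overlapped in range except Rbpj and Dll4. Within a library, Hes1 was above Hes5 in 4 of 4 and Notch1 above Notch2 in 4 of 4, while Notch2 was above Dll1 in 2 of 4, both of them MCS.

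**Figure D3:**
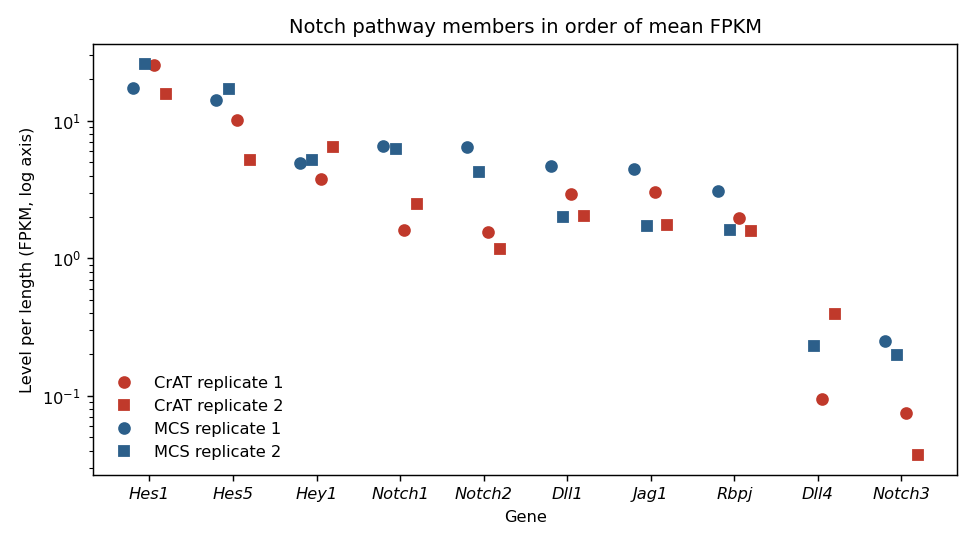
Level of each member in FPKM (vertical, log axis), in order of the mean over 4 libraries, with MCS in blue, CrAT in red, circles for replicate 1 and squares for replicate 2. Dll4 in MCS replicate 1 is 0 and not drawn. Targets lie at the top, and Notch2 is above Dll1 in both MCS libraries and below it in both CrAT libraries.

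The balance of the roles was described in the same scale. The 3 receptors came in sum to 3.23 and 3.68 FPKM with CrAT against 13.2 and 10.7 FPKM with MCS. The 3 targets came in sum to 39.5 and 27.3 FPKM with CrAT against 36.2 and 48.4 FPKM with MCS, which overlap. Receptors were thus 8.19% and 13.5% of the targets in the CrAT libraries and 36.5% and 22.0% in the MCS libraries. Among the targets, Hes5 was 40.2% and 33.2% of Hes1 in CrAT and 82.0% and 65.5% in MCS. In both ratios the 2 CrAT values lay below the 2 MCS values, and an exact two-sided permutation test of 2 libraries against 2 cannot go below p = 0.333. The receptor ratio repeats the receptor difference described above, on which the members were picked. The Hes5 ratio rests on reads that cannot be told apart from those of Gm20421.

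Markers of Mueller glia, which express Notch receptors and Hes genes, were also lower in the CrAT libraries. Their 15 genes came in sum to 17240 and 13780 CPM with CrAT against 25480 and 22780 CPM with MCS. All 15 had a log2 fold change below 0, with a median of -0.74 and a range of -1.37 to -0.36, and none passed in edgeR (adjusted p = 1, with 4 at an unadjusted p under 0.05, and 0 in DESeq2 after adjustment). Glul, the glutamine synthetase of these cells, had the lowest at -1.37. In 11 of the 15 both CrAT values were under both MCS values. For Slc1a3, Aqp4, Dkk3 and Abca8a the groups overlapped, with MCS replicate 1 the highest library for each. Over the whole 19638 genes, 49.4% had a value below 0, and in 16.6% the CrAT pair was the lower. In edgeR 2.87% of them were lower in CrAT at that unadjusted mark. The receptors, at -1.60 to -1.95, lay below every marker of the list, a difference that was not tested. The 5 astrocyte markers came in sum to 261.9 and 223.3 CPM with CrAT against 413.7 and 318.2 CPM with MCS, with Pax2 at 0 or 1 count in each library.

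Set against the summed Mueller markers of the same library, Notch1 was 1.37 and 2.58 per 1000 marker CPM in CrAT and 3.60 and 3.82 in MCS. Notch2 was 1.00 and 0.92 in CrAT and 2.69 and 1.96 in MCS. Both kept the groups apart on this scale, as did Notch3, and the log2 ratios of the group means were -0.91, -1.27 and -1.35, against -1.60, -1.92 and -1.95 in CPM. Hes5 was 0.836 and 0.517 in CrAT and 0.743 and 1.00 in MCS, and overlapped. Hes1, at 3.11 and 2.33 against 1.35 and 2.29, and Hey1, at 0.734 and 1.54 against 0.619 and 0.728, lay higher in both CrAT libraries than in both MCS libraries on this scale. That did not hold when Apoe and Clu, a pair of abundant markers, were left out of the sum. Rbpj then lay higher in both CrAT libraries, at 3.42 and 3.60 against 3.32 and 2.26, where it had overlapped with the whole list. The choice of this scale was made with the lower Mueller markers known. The receptors were picked on this contrast, and the share of all genes that stay apart on this scale was not computed. Nothing is therefore read from the receptors staying apart.

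**Figure D4:**
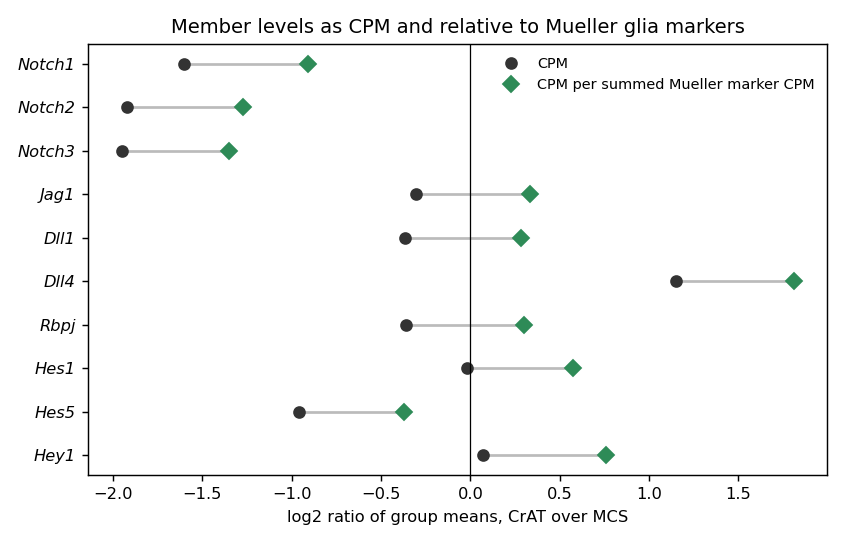
Log2 ratio of the group means, CrAT over MCS (horizontal), for each member in CPM (black circles) and per summed CPM of 15 Mueller glia markers (green diamonds). Dividing by the markers moves every member to the right, and the 3 receptors and Hes5 remain below 0.

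Vessel cells are another home of Notch receptors, and their markers were uneven. Of 10 endothelial markers 7 were tested, 5 with a log2 fold change below 0 and 2 above. The endothelial cadherin Cdh5 had 0 counts in all 4 libraries, Tie1 had 0 or 1 count in each and Emcn 0 to 4. Pecam1 stood at 1.55 and 0.943 CPM with CrAT against 0.402 and 0.543 CPM with MCS, and Vwf, von Willebrand factor, the other way at 0.168 and 0 CPM against 1.17 and 1.38 CPM. Esam, an adhesion molecule, was 21.6 to 67.1 CPM and overlapped. The list of 10 came in sum to 471.8 and 369.9 CPM with CrAT against 861.1 and 481.1 CPM with MCS, mostly from Kdr and Flt1, and 5 of the 10 were at 0 in at least 1 library. Flt1, a VEGF receptor, stood at 79.2 and 51.0 CPM with CrAT against 243.7 and 205.9 CPM with MCS, with an adjusted p of 1 in edgeR and 0.00489 in DESeq2. Which cells the Kdr and Flt1 transcripts came from was not tested. Mural cell markers came in sum to 42.5 and 33.5 CPM with CrAT against 68.5 and 40.5 CPM with MCS over 8 genes, mostly Pdgfrb, with Rgs5 at 2.93 to 5.28 CPM and Myh11 at 0 counts in all 4 libraries. The part of any of these cells in the receptor levels was not tested.

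The rest of the pathway was followed in 51 further genes, listed by role with earlier results of these data known. Of these 48 were tested, and 0 passed in either direction in edgeR and 0 in DESeq2 after adjustment. At an unadjusted p under 0.05, edgeR had 6, all lower in CrAT. Of all genes tested, 2.87% passed that mark in edgeR lower in CrAT and 1.28% higher. DESeq2 also had 6 at an unadjusted p under 0.05, where 4.42% of the 19638 genes tested in edgeR passed that mark in DESeq2. Log2 fold changes were below 0 for 33 and above 0 for 15, with a median of -0.28. Over all genes tested, 49.4% were below 0 and the median was 0.01. The CrAT pair lay below the MCS pair for 19 and above for 5, against 16.6% and 15.0% of all genes tested.

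Among the other receptor and ligands, Notch4, an endothelial receptor, stood at 0.796 and 1.13 CPM with CrAT against 2.37 and 1.77 CPM with MCS, a log2 fold change of -1.10 (SE 0.58). Jag2, the other Jagged ligand, stood at 3.27 and 7.05 CPM with CrAT against 7.56 and 15.2 CPM with MCS, at -1.14 (SE 0.57). Neither pair of groups overlapped, though for Jag2 the gap was narrow beside the spread within a group. Dll3, a Delta-like protein that acts inside the cell, overlapped at -0.47 (SE 0.87). Of the other targets, Hey2 stood at 16.8 and 10.4 CPM with CrAT against 28.4 and 17.2 CPM with MCS, at -0.75 (SE 0.44), and the groups were apart by less than the spread within them. Nrarp, which encodes a feedback inhibitor of the Notch complex, stood at 4.31 and 1.43 CPM with CrAT against 6.19 and 6.99 CPM with MCS, at -1.20 (SE 0.61). Heyl, the third HEY gene, overlapped at -0.12 (SE 0.60). All 6 had a log2 fold change below 0.

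Genes of the shared machinery lay on both sides of 0. Of 10 genes for receptor cleavage 7 were below 0 and 3 above, and Psenen, the gamma-secretase subunit with the highest FPKM, was at -0.06 (SE 0.37). Of 5 genes for receptor glycosylation 4 were below 0, and the Fringe enzyme Rfng was at -0.08 (SE 0.29). Ubiquitin ligases that activate ligands had 2 of 3 tested below 0, with Mib2 at 0.11 (SE 0.35). Coactivators had 5 of 7 below 0, with Snw1 at 0.32 (SE 0.28), and corepressors 4 of 6, with Hdac1 at 0.15 (SE 0.27). For Snw1 and Hdac1 the CrAT pair lay above the MCS pair. Inhibitors and genes of receptor turnover had 5 of 9 tested below 0, with Dtx3 at -0.28 (SE 0.32). The proneural factors that HES proteins repress were near the floor, with summed levels of 1.59 to 2.34 CPM over 3 genes, and Atoh7, needed for ganglion cell birth, was at 0.01 (SE 0.73).

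**Figure D5:**
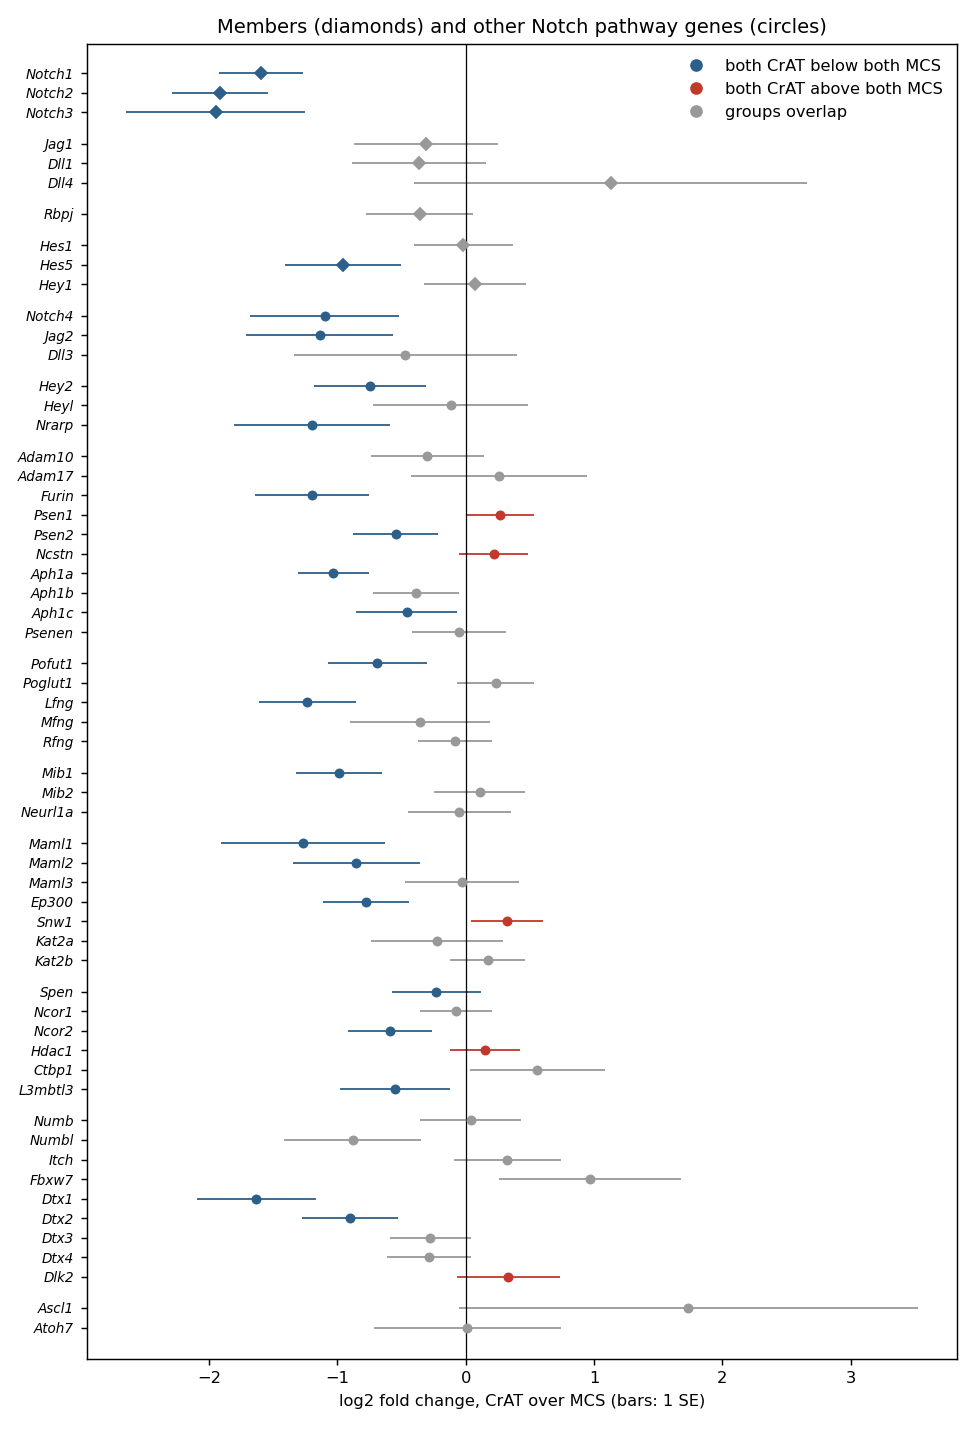
Log2 fold change, CrAT over MCS (horizontal, bars 1 SE), of the 10 members (diamonds) and 48 other pathway genes tested (circles), grouped by role in the order receptors, ligands, RBPJ and targets, then other genes. Blue marks genes with both CrAT libraries below both MCS libraries, red the reverse and grey an overlap. The 3 receptors lie at -1.60 to -1.95, and of the other genes Dtx1, a Deltex ubiquitin ligase, is as far left, at -1.63.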

How the data were processed

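RNA of 4 libraries, 2 per group, was analysed, with group and replicate taken from the sample titles. Per the labels' protocols, cDNA came from the SMART-seq v4 low-input kit, which does not mark the strand. STAR 2.7.2b is named in the submitters' processing notes, beside GRCm38.p6 and mm10 as builds. The counter's settings are not given in the sources used for this work. Gene coordinates in the tables differ from GRCm38 for all 10 members and are not printed. The authors deposited estimated counts per gene, rounded to whole numbers, since the deposited FPKM values, multiplied back by exon length and depth, are fractional. FPKM is used as the authors deposited it. Each table held 2 columns of samples not described in the labels, 4 in all, which were not used.

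Genes kept by filterByExpr (19638) were scaled by TMM and tested with edgeR 4.0.16's quasi-likelihood F test (robust, group as the single term, with 2 residual degrees of freedom), two-sided, Benjamini-Hochberg adjusted over all genes, threshold 0.05. SE is the absolute log2 fold change divided by the square root of F. DESeq2 1.42.0 and other scalings, filters, a replicate block and leaving out libraries were alternatives. Replicates differed beyond counting noise in both groups (chi-square over degrees of freedom 77.5 and 131). The test was checked on simulated counts. Members and gene lists were chosen with earlier results of these data known. Named genes were the members, 6 further receptors, ligands and targets, and the gene of highest FPKM in each other role. Of the marker lists, the sums and chosen genes were given. Among these, Flt1, Kdr, Vwf, Esam, Kcnq1ot1, Pax2 and Myh11 were picked after their values were seen. So were Tie1, Emcn, Car14, Isl1, Pou4f1, Pou4f2, Nefl, Nefm, Thy1, Sncg, Slc1a3, Aqp4, Dkk3 and Abca8a.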

Additional observations from a re-analysis of the deposited data

How the results depend on the processing

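With 2 libraries a group and a common biological coefficient of variation of 0.404, single-gene calls rest on little replication, and Dll4 and Notch3 on few counts. Genes past the threshold numbered 2 without the filter on low counts and 49 in DESeq2, against 0. In DESeq2 the members past it numbered 2, Notch1 and Notch2. With 1 library left out, members below 0 numbered 5 to 8, and members with the CrAT libraries below the MCS libraries 4 to 7. Members with the CrAT libraries above were not counted there. The members' median then ran from -0.82 to -0.12 and that of the other pathway genes from -0.42 to -0.10. The log2 fold changes crossed 0 for Jag1 (-0.83 to 0.54), Dll1 (-0.85 to 0.37), Dll4 (-0.20 to 7.60, the upper set by the prior count against 0 counts), Rbpj (-0.75 to 0.19), Hes1 (-0.43 to 0.32), Hey1 (-0.34 to 0.40), Dll3 (-1.21 to 1.17), Heyl (-0.62 to 0.28), Psenen (-0.43 to 0.46), Rfng (-0.23 to 0.10), Mib2 (-0.30 to 0.44) and Atoh7 (-0.43 to 0.67). Atoh7 was -0.0453 with library totals. The shorter core TGGGAA was found for 2 members, against 1. The cause was not tested beyond fewer samples or looser letters.

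The labels do not say that replicate numbers pair the samples, and across genes replicate 1 minus replicate 2 in CrAT correlated with the same in MCS at 0.534 (2 pairs). With the replicate block 1922 genes had an unadjusted p under 0.05, against 815, and 0 passed the threshold. Psenen turned to 0.00895, and of the members, the 6 further receptors, ligands and targets and the gene of highest FPKM in each other role, no other changed direction. In the stricter filter Dll4 was not tested.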

Other observations

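The 6 further pathway genes with an unadjusted p under 0.05 in edgeR, all with an adjusted p of 1, act at different steps of the pathway and were named after their values were seen. Dtx1, a Deltex ubiquitin ligase that binds Notch receptors, stood at 14.3 and 29.1 CPM with CrAT against 49.7 and 84.7 CPM with MCS, a log2 fold change of -1.63 (SE 0.47). Its relative Dtx2 was at -0.90 (SE 0.37). Lfng, a Fringe enzyme that tunes which ligands a receptor answers to, stood at 6.03 and 5.77 CPM with CrAT against 13.9 and 13.9 CPM with MCS, with little spread within either group, at -1.24 (SE 0.38). Aph1a, a subunit of gamma-secretase, stood at 91.9 and 79.9 CPM with CrAT against 163.8 and 187.2 CPM with MCS, at -1.03 (SE 0.28). Its span overlaps that of Car14, a Mueller marker on the opposite strand. Car14 stood at 353.9 and 275.9 CPM with CrAT against 738.6 and 677.5 CPM with MCS. Reads that the pair may share were not examined, and the library kit does not mark the strand. Furin, the protease that matures the receptor, was at -1.20 (SE 0.45), and Mib1, a ligase that activates ligands, at -0.99 (SE 0.33). In all 6 the CrAT pair lay below the MCS pair, as in 16.6% of all genes tested. The 6 were picked by their p-values on this same contrast, so nothing is read from that count.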
